A study of Zea mays with 6 samples.

Results

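The salt response of maize seminal root tips was read from 2 of the 6 libraries of the series, chosen by their labels: SR-salt, from seminal roots held in 100 mM NaCl for 24 h, and SR, from seminal roots held in 0 mM NaCl over the same time. Both came from the inbred line Chang 7-2, grown in Hoagland's solution and treated 7 days after germination, and each library pooled the apical 1 cm of 10 to 15 roots. The labels give the root length as 6 to 10 cm in one field and as 5 to 8 cm in another. The other 4 libraries were the same pair from crown roots (CR-salt and CR, treated at 15 days) and from primary roots (PR-salt and PR, treated at 3 days), so root type and age cannot be told apart between them. With 1 library a condition, no difference below has a replicate check. Every interval covers the counting of reads only, and every test compares libraries, not conditions.

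The SR-salt library held a mean of 52.6 uniquely assigned reads a transcript and the SR library 51.6, the lowest of the 6 libraries, which reached up to 55.1. Of 48312 transcripts in the deposited table, 40528 had at least 1 read in the pair and 17983 had 20 or more, the minimum used for the pathway counts. The median log2 ratio of RPKM (reads scaled to the transcript's length and the library's total, SR-salt over SR) of those 17983 was 0.03. No marker of seminal root identity was among the lists. The light-harvesting and Rubisco small subunit transcripts, which mark green shoot tissue, summed to 186 reads in SR-salt and 194 in SR over 23 annotated transcripts, of which 2 reached 20 reads. The MCM helicase subunits, which mark cells that copy their DNA, summed to 3416 reads in SR-salt and 3256 in SR. Tips are bulk tissue, in which fewer cells of a type and less RNA per cell cannot be told apart.

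A root tip holds the meristem, the elongation zone and the first differentiated cells. Salt reaches it as an osmotic load and as sodium and chloride ions. Roots are known to answer with abscisic acid (ABA) signalling, with changes in ion, sugar and nitrogen transport, and with cell walls that are loosened by some enzymes and stiffened by others, among them the class III peroxidases, which use hydrogen peroxide to cross-link wall polymers.

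A transcript was called a differentially transcribed gene (DTG) where its absolute log2 ratio was at least 1 and the FDR (false discovery rate) of the Audic-Claverie test on the 2 read counts was at most 0.001. In the text, "rose" and "fell" are kept for DTGs. A transcript is called higher or lower beyond counting error where the 95% interval of its log2 ratio, from the exact binomial interval of its reads, lay wholly above or below 0. The 159 DTGs were 0.392% of the 40528 transcripts tested: the 33 that rose were 0.0814% and the 126 that fell 0.311%. Of the 17983 transcripts with 20 or more reads, they were 0.184% and 0.701%. In contrast, transcripts higher and lower beyond counting error were almost equal in number, at 8.86% and 8.54% of the 17983.

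**Figure D1:**
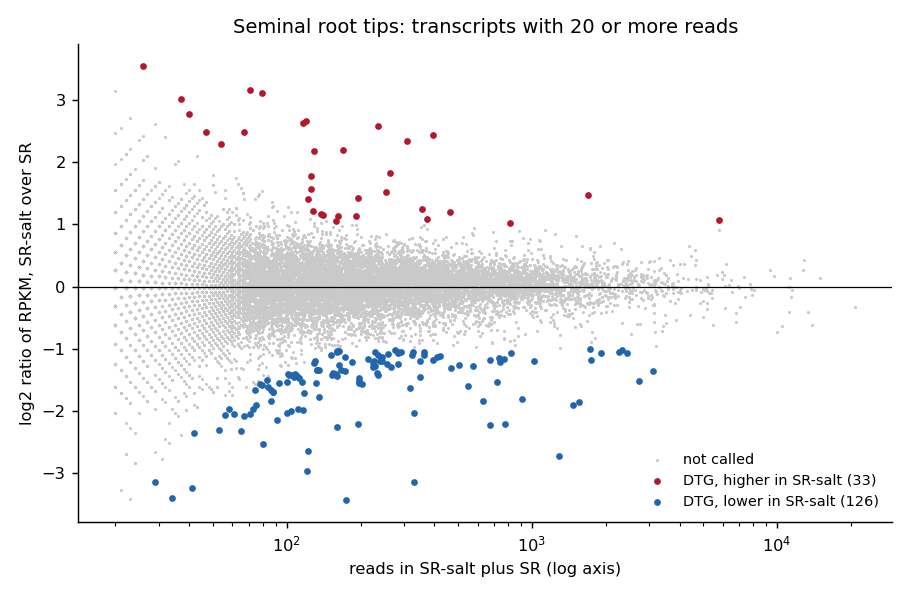
Log2 ratio of RPKM (SR-salt over SR, y axis) against the reads in both libraries together (x axis, log scale) for transcripts with 20 or more reads and at least 1 read in each library. Red points are the 33 DTGs that rose, blue points the 126 that fell, and grey points were not called. The risen DTGs have a median of 140 reads and reach 5792, and the fallen ones a median of 189.5 and reach 3122.

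Reads of the fallen DTGs summed to 0.555% of the SR-salt library and 1.45% of the SR library, and those of the risen DTGs to 0.380% of SR-salt and 0.150% of SR. These sums follow from the calls and describe only how much of each library the calls took up. The annotation differed between directions. A KEGG Orthology entry was given for 26 of 33 risen DTGs and 67 of 126 fallen ones. Of all 17983 transcripts, 10123 had an entry, a share close to that of the fallen DTGs and below that of the risen ones. The 59 fallen DTGs without an entry could not enter the KEGG counts, though some of them carry GO Process terms. The risen DTGs had a median length of 1503 bases, the fallen ones 922.5 and all 17983 transcripts 1080.

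Of the SR DTGs, 5 had primer pairs for quantitative PCR in the study. They are shown because they identify the assayed stretch of a nitrate transporter, an aldehyde oxidase, a SWEET sugar transporter, a xanthoxin dehydrogenase entry and a transcript with no KEGG entry, whose reads are given below. Each primer is written 5′ to 3′.
GRMZM2G010251_T01 (nitrate transporter), forward: ttcttcacctcctcaacctactccac
GRMZM2G010251_T01 (nitrate transporter), reverse: cttctcgtcgtcgttccactcg
GRMZM2G141473_T01 (aldehyde oxidase), forward: ggcattcggattgggaca
GRMZM2G141473_T01 (aldehyde oxidase), reverse: tcgcagctagtttcagaagtggt
GRMZM2G000812_T01 (SWEET sugar transporter), forward: tggcatctgctggactgcttac
GRMZM2G000812_T01 (SWEET sugar transporter), reverse: gatgatctcctgggtggacttgtag
GRMZM2G308463_T01 (xanthoxin dehydrogenase entry), forward: gtcagggtcaatgccatctcg
GRMZM2G308463_T01 (xanthoxin dehydrogenase entry), reverse: tcaccgtgtaggtgccgtagc
GRMZM2G032225_T01 (no KEGG entry), forward: acggtgcgggttcgtcttc
GRMZM2G032225_T01 (no KEGG entry), reverse: tgttgctcgttactacgggctgtt

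Nitrogen uptake and assimilation stood on the rising side. Nitrate enters root cells through the high-affinity NRT2 carriers, is reduced to nitrite and then to ammonium, and is built into glutamine, glutamate and asparagine. All 3 NRT2 transcripts with 20 or more reads were higher in SR-salt beyond counting error, and 2 of them rose. GRMZM2G010280_T01 had 202 reads in SR-salt and 33 in SR, a log2 ratio of 2.59 (95% interval 2.05 to 3.16). The third NRT2 transcript, GRMZM2G163866_T01, had 302 reads in SR-salt and 248 in SR, at 0.26 (0.01 to 0.50), an interval that included 0 under TMM (-0.030 to 0.466) and DESeq2 (-0.020 to 0.476) scaling. GRMZM2G010251_T01, whose primers are shown above, had 259 reads in SR-salt and 50 in SR. It and GRMZM2G010280 are neighbours on chromosome 4 in RefSeq (assembly Zm-B73-REFERENCE-NAM-5.0), where 1 gene lists both IDs as synonyms, so the split of reads between these 2 copies is uncertain.

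Of 3 measured ammonium carriers of the Amt family, 2 were higher and 1 was lower beyond counting error, and 1 of the higher ones rose. GRMZM2G175140_T01, higher but not a DTG, had 194 reads in SR-salt and 139 in SR, at 0.45 (0.13 to 0.78). The risen GRMZM2G028736_T01 had 252 reads in SR-salt and 104 in SR, a log2 ratio of 1.25 (0.91 to 1.59). GRMZM2G080045_T01 went the other way, with 55 reads in SR-salt and 103 in SR, at -0.93 (-1.43 to -0.45). The members of this small family therefore differed in direction. Among 18 measured assimilation enzymes, 7 were higher beyond counting error and 0 lower, with a median of 0.21. The risen member was a glutamate synthase (GOGAT, which turns glutamine into glutamate), GRMZM2G085078_T02, with 143 reads in SR-salt and 52 in SR. These reads covered only 1.44% of its 6528 bases in SR-salt and 1.41% in SR, about 94 and 92 bases, so they describe a short stretch and not the whole transcript. The enzymes with the most reads moved less. Another glutamate synthase, GRMZM2G077054_T01, had 5190 reads in SR-salt and 4516 in SR, at 0.17 (0.11 to 0.23), and glutamine synthetase GRMZM5G872068_T01, which fixes ammonium, had 1657 in SR-salt and 1636 in SR, at -0.01 (-0.11 to 0.09). Between these lay 1 nitrite reductase, GRMZM2G102959_T01, with 1165 reads in SR-salt and 723 in SR (0.66, 0.53 to 0.80), and asparagine synthetase GRMZM2G053669_T01, with 1047 in SR-salt and 677 in SR (0.60, 0.46 to 0.74). The reads of the assimilation list summed to 10974 in SR-salt and 9105 in SR, a log2 ratio of 0.24 (0.20 to 0.28).

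The larger NRT1/PTR family, which carries nitrate, peptides and some hormones, gave 2 risen members among 35 measured, but no family-wide shift. Its median was -0.16, with 5 members higher and 4 lower beyond counting error, close to the shares over all transcripts. GRMZM2G061303_T01 had 106 reads in SR-salt and 23 in SR, at 2.18 (1.52 to 2.89). GRMZM2G055545_T01 had 64 in SR-salt and 7 in SR, at 3.16 (2.04 to 4.54).

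**Figure D2:**
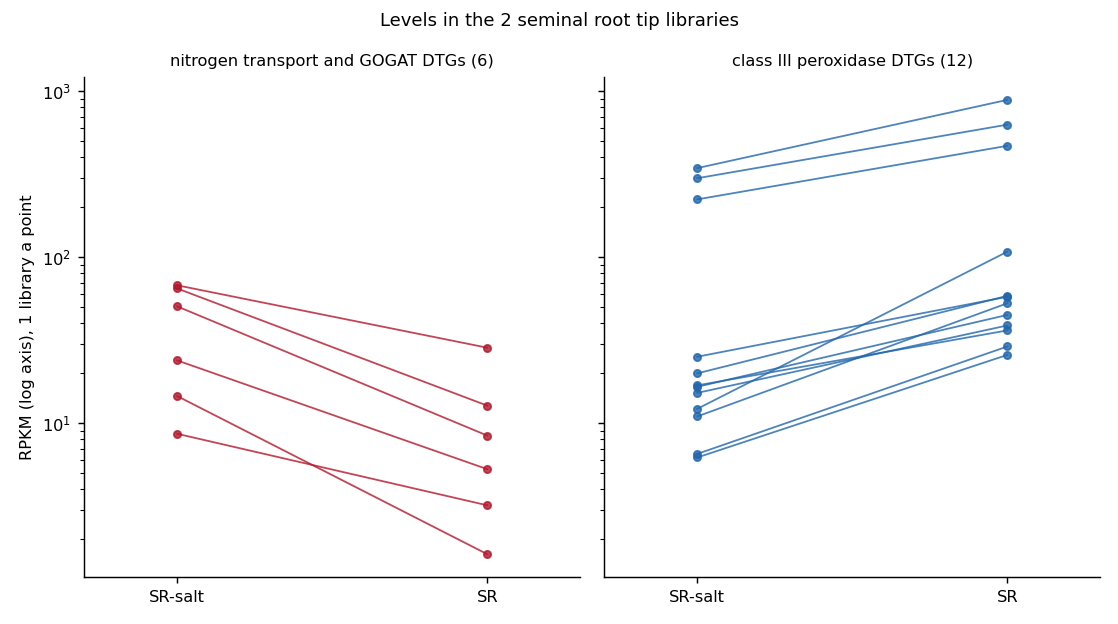
RPKM (y axis, log scale) in SR-salt (left) and SR (right) of each panel, 1 library a point and 1 line a transcript. The left panel holds the 6 nitrogen transport and glutamate synthase DTGs, which were all higher in SR-salt (the glutamate synthase from reads on about 94 bases), and the right panel the 12 class III peroxidase DTGs, which were all lower in SR-salt.

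Class III peroxidases were the gene family with the most fallen members. Of 92 measured, 12 fell and 0 rose, 49 (53.3%) were lower beyond counting error and 5 were higher, and the median was -0.46. The family took 26647 reads in SR-salt and 34237 in SR, a log2 ratio of -0.39 (-0.41 to -0.37). The 12 fallen members fell at very different levels. GRMZM2G088765_T01 had 885 reads (343 RPKM) in SR-salt and 2237 reads (885 RPKM) in SR, at -1.37 (-1.48 to -1.25). GRMZM2G138450_T01 had 34 reads (12.2 RPKM) in SR-salt and 295 reads (108 RPKM) in SR, at -3.15 (-3.70 to -2.63). GRMZM2G116902_T01 had 28 reads in SR-salt and 132 in SR, at -2.27 (-2.91 to -1.67). Those named here ran from 132 to 2237 reads in SR. The most abundant member did not fall by 1 log2 unit: GRMZM2G135108_T01 had 3514 reads in SR-salt and 3860 in SR, at -0.16 (-0.23 to -0.10). GRMZM2G450717_T01 was the exception at depth, with 679 reads in SR-salt and 402 in SR, at 0.73 (0.55 to 0.91).

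The NADPH oxidases of the respiratory burst (RBOH), which make the superoxide from which wall peroxide derives, had a median of 0.30 over 13 members, with 4 higher and 3 lower beyond counting error. Their summed reads pointed the other way, at 1712 in SR-salt and 2471 in SR. GRMZM2G300965_T01, the member with a DTG call, fell, with 316 reads in SR-salt and 1158 in SR, at -1.90 (-2.09 to -1.72). Without it the list summed to 1396 reads in SR-salt and 1313 in SR, at 0.06 (-0.05 to 0.17). The intracellular antioxidant enzymes, superoxide dismutases and catalases among them, had 3 of 10 members higher beyond counting error, 0 lower and 0 DTGs, with a median of 0.17. Glutathione S-transferases, which detoxify by conjugation, had a median of 0.03 over 41 members and 0 DTGs. Of them, 8 (19.5%) were higher beyond counting error and 4 (9.76%) lower, against 8.86% and 8.54% over all transcripts. Their reads summed to 13090 in SR-salt and 11941 in SR, at 0.10 (0.07 to 0.14).

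Xyloglucan transglucosylases, which cut and rejoin the xyloglucan tethers of the wall, had 8 of 16 members lower, 3 higher and 1 DTG, with a median of -0.25. This was GRMZM5G885362_T01, which had 3 reads in SR-salt and 31 in SR, at -3.40 (-5.75 to -1.72). Pectin enzymes had a median of 0.00 over 33 members with 7 lower and 3 higher, and the polygalacturonase GRMZM2G435380_T01 fell, with 31 reads in SR-salt and 104 in SR. Cellulose synthases had a median of -0.03 over 19 members, with 3 higher, 2 lower and 0 DTGs. Lignin and phenylpropanoid enzymes had a median of -0.02 over 54 members with 1 DTG. Of these 54, 12 (22.2%) were lower beyond counting error and 6 (11.1%) higher, against 8.54% and 8.86% over all transcripts.

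Chitinases were the hydrolase family on the rising side. They cut chitin and related polymers and are known as defence proteins. Of 19 measured, 6 were higher beyond counting error, 0 lower, and 2 rose. GRMZM2G145518_T01 had 1247 reads (430 RPKM) in SR-salt and 442 reads (156 RPKM) in SR, at 1.47 (1.31 to 1.63). These reads covered 46.6% of the transcript in SR-salt and 51.8% in SR. GRMZM2G051943_T01 had 35 reads in SR-salt and 5 in SR, at 2.78 (1.42 to 4.49). The family summed to 3204 reads in SR-salt and 1946 in SR, at 0.69 (0.61 to 0.77). Of these reads, GRMZM2G145518_T01 alone gave 1247 in SR-salt and 442 in SR, and the family median was lower than the sum, at 0.26. Beta-glucosidases, which free hormones and defence compounds from their sugars, also had 2 DTGs that rose among 16, GRMZM2G108133_T01 with 326 reads in SR-salt and 139 in SR and GRMZM2G055699_T01 with 96 in SR-salt and 42 in SR. Their median was 0.32, yet their summed reads were lower, at 8156 in SR-salt and 9760 in SR, and the most abundant member, GRMZM2G120962_T01, had 5801 reads in SR-salt and 7579 in SR. Of 15 benzoxazinoid enzymes, which make the main defence compounds of young maize, 4 were higher, 1 lower and 1 rose, namely GRMZM2G172491_T01 with 112 reads in SR-salt and 50 in SR. Pathogenesis-related protein 1, a defence marker of unknown enzyme activity, had a median of -0.59 over 10 members, 5 of them lower and 1 higher, and GRMZM2G481194_T01 fell, with 21 reads in SR-salt and 65 in SR.

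**Figure D3:**
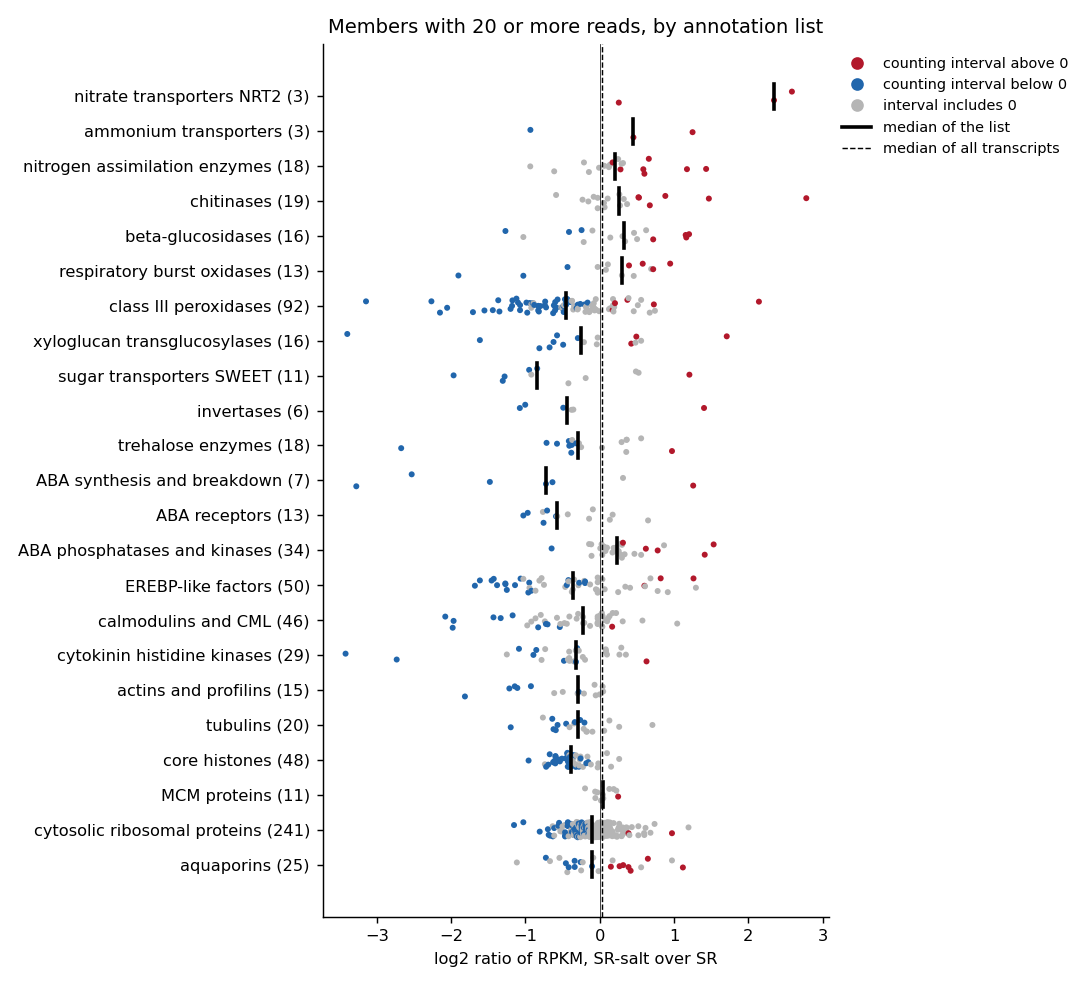
Log2 ratio of RPKM (x axis, SR-salt over SR) of each transcript with 20 or more reads, by annotation list (y axis, with the number of transcripts). Red and blue points have a counting interval wholly above or below 0, grey points do not, black bars are list medians and the dashed line is the median of all transcripts, 0.03. The peroxidase, histone and tubulin rows lie mostly left of 0, and the NRT2 row lies right of it.

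Sugar carriers and sugar enzymes gave fallen members in several families, with exceptions. SWEET proteins are uniporters that let sucrose and hexoses leave cells. Of 11 measured, 3 fell, 5 were lower and 1 was higher beyond counting error, and the median was -0.84, the second lowest of 256 KEGG entries with 8 or more measured transcripts. GRMZM2G000812_T01 had 137 reads in SR-salt and 332 in SR, at -1.30 (-1.60 to -1.01). GRMZM2G173669_T01 had 68 in SR-salt and 162 in SR, at -1.28 (-1.71 to -0.86), and GRMZM2G060974_T01 had 12 in SR-salt and 46 in SR, at -1.97 (-3.02 to -1.03). GRMZM2G179349_T01 was the member higher in SR-salt, with 40 reads there and 17 in SR. Invertases, which split sucrose, had 1 member that fell, 1 that rose and 2 further members lower beyond counting error among 6, with a median of -0.44. GRMZM2G089836_T01 had 580 reads in SR-salt and 1140 in SR, and stood just inside the ratio threshold. GRMZM2G095725_T02 had 89 reads in SR-salt and 33 in SR, at 1.40 (0.81 to 2.03). Sucrose synthases, which also cleave sucrose, were on the other side, with 103 reads in SR-salt and 64 in SR summed over all 13 annotated transcripts, at 0.66 (0.19 to 1.13). Of the 2 with 20 or more reads, GRMZM2G045171_T01 had 64 reads in SR-salt and 36 in SR, at 0.80 (0.19 to 1.43), and was not a DTG. The trehalose enzymes, which make and remove the signal sugar trehalose 6-phosphate, had 0 DTGs but 8 of 18 members lower and 1 higher, with a median of -0.30. GRMZM2G312521_T01 had 401 reads in SR-salt and 646 in SR, at -0.72 (-0.90 to -0.53), while the most abundant member, GRMZM2G527891_T01, had 1552 in SR-salt and 1490 in SR, at 0.03 (-0.07 to 0.13). The largest fall by ratio among the DTGs belonged to a pyruvate decarboxylase, the first enzyme of ethanol fermentation, AC197705.4_FGT001, with 15 reads in SR-salt and 160 in SR. Another transcript of the pyruvate decarboxylase entry, GRMZM5G841025_T01, had 203 reads in SR-salt and 210 in SR and did not differ beyond counting error. It is only 216 bases long, with 62.96% covered in each library, against 1830 bases for AC197705.4_FGT001. GRMZM2G038821_T01, of the same entry, had 62 in SR-salt and 25 in SR and was higher beyond it.

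Members of the ABA pathway moved in both directions. The last step of ABA synthesis is run by aldehyde oxidases, which the KEGG column places under the indole-3-acetaldehyde oxidase entry. That entry is named for another substrate, and which of its members act in ABA synthesis was not tested. Of 6 measured, 4 were higher beyond counting error and 0 lower, and their reads summed to 6905 in SR-salt and 3855 in SR, a log2 ratio of 0.81 (0.76 to 0.87). The same 6 had 4 higher in CR and 5 in PR, with 0 lower in either. GRMZM2G141473_T01 rose, with 3948 reads in SR-salt and 1844 in SR. GRMZM2G124175_T01, with 741 in SR-salt and 385 in SR, was at 0.92 (0.74 to 1.10), and GRMZM5G899851_T01, with 1057 in SR-salt and 674 in SR, at 0.62 (0.48 to 0.76). The GO Process term abscisic acid metabolic process had the highest median of 286 terms, 0.29 over 17 transcripts. By contrast, 5 of the 7 measured transcripts whose first KEGG entry was another ABA synthesis or breakdown enzyme were lower and 1 was higher. The higher one, GRMZM2G047800_T01, is under the xanthoxin dehydrogenase entry and had 39 reads in SR-salt and 16 in SR, at 1.26, with a lower bound of 0.38. The xanthoxin dehydrogenase entry GRMZM2G308463_T01 fell, with 12 reads in SR-salt and 68 in SR, at -2.53 (-3.55 to -1.63). The 9-cis-epoxycarotenoid dioxygenase GRMZM2G110192_T01, of the family that catalyses a key step, had 15 reads in SR-salt and 41 in SR, at -1.48 (-2.44 to -0.59), and was not a DTG. The ABA 8'-hydroxylase GRMZM2G179147_T02, which breaks ABA down, had 92 in SR-salt and 149 in SR, at -0.72 (-1.11 to -0.34). The summed reads of these enzymes without the oxidases were at -0.64 (-0.84 to -0.44), and at 0.66 when any KEGG entry of a transcript was counted, so the direction for the pathway depended on whether the oxidases were taken in.

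Receptors and downstream parts of ABA signalling moved apart as well. Of 13 PYR/PYL receptors, 5 were lower beyond counting error and 0 higher, with a median of -0.57 and 0 DTGs. GRMZM2G144224_T01 had 113 reads in SR-salt and 217 in SR, at -0.97 (-1.31 to -0.63), just under the ratio threshold, whereas GRMZM2G063882_T01 had 149 in SR-salt and 133 in SR, at 0.14 (-0.21 to 0.48). The phosphatases that the receptors inhibit and the kinases that these release (PP2C and SnRK2) had a median of 0.23 over 34 members, with 5 higher, 1 lower and 0 DTGs. 

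Other signalling entries with fallen members were related to cytokinin, ethylene and calcium. The entry for cytokinin receptor histidine kinases held 29 measured transcripts, 8 lower and 1 higher, with a median of -0.32. Its DTGs were 2, both fallen. GRMZM2G431039_T01 had 172 reads in SR-salt and 1121 in SR, at -2.73 (-2.97 to -2.50), and GRMZM5G824920_T01 had 84 in SR-salt and 175 in SR, at -1.09 (-1.48 to -0.70). The summed log2 ratio of the entry was -0.46, and -0.10 (-0.17 to -0.03) without GRMZM2G431039_T01, at 3010 reads in SR-salt and 3164 in SR. The name is that of the annotation. The response regulators of the same pathway had a median of -0.03 over 41 members, with 5 higher and 5 lower. The EREBP-like factors, which bind ethylene- and drought-response elements, had 18 of 50 members lower and 3 higher, with a median of -0.35. Both of their DTGs fell, GRMZM2G131281_T01 with 29 reads in SR-salt and 78 in SR and GRMZM2G053503_T02 with 130 in SR-salt and 281 in SR. The ethylene-forming oxidase GRMZM2G013448_T04 also fell, with 78 reads in SR-salt and 167 in SR. Calmodulins and calmodulin-like proteins, the sensors of calcium signals, had 10 of 46 members lower and 1 higher. The calmodulin-like (CML) entry alone had a median of -0.54 over 23 members, 9 lower and 0 higher. Fallen members were calmodulin GRMZM2G126749_T01, with 15 reads in SR-salt and 58 in SR, and CML AC225718.2_FGT006, with 28 in SR-salt and 74 in SR. The FLS2-type receptor kinases, which sense bacterial flagellin in Arabidopsis, had 15 of 61 members lower and 5 higher and 2 DTGs, both fallen. Families near the shares over all transcripts were the auxin response genes (3 higher and 4 lower of 32), the cytokinin response regulators above and the MYB factors (4 higher and 7 lower of 70, with 2 fallen DTGs).

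Growth machinery was marked by small shifts that many members shared. Of 48 core histone transcripts, 31 (64.6%) were lower beyond counting error, 0 were higher and 0 were DTGs, with a median of -0.39. The median was -0.34 for H2A (17 transcripts), -0.38 for H2B (13), -0.40 for H3 (13) and -0.42 for H4 (5). The list summed to 12736 reads in SR-salt and 16369 in SR, at -0.39 (-0.42 to -0.36). The counts hold uniquely mapped reads, and how reads from similar histone copies were assigned was not tested, so values of single copies are uncertain. In contrast, the MCM subunits had a median of 0.04 with 1 of 11 higher and 0 lower, and the cyclins 0.26 with 1 higher and 1 lower of 17. Tubulins had 9 of 20 members lower and 0 higher, with a median of -0.30, and the abundant alpha-tubulin AC195340.3_FGT001 had 3162 reads in SR-salt and 3912 in SR. The cytosolic ribosomal proteins had a median of -0.11 over 241 transcripts with 54 lower and 2 higher, and summed to 77921 reads in SR-salt and 82151 in SR. Short transcripts leaned slightly lower as a whole, from a median of -0.03 up to 500 bases to 0.10 above 3000 bases, and the median lengths were 450 bases for the histones and 468 for the ribosomal proteins. After the median of transcripts of like length was subtracted, the histone median was -0.37 and the ribosomal one -0.08. Whether length had a part in the ribosomal shift beyond this was not tested.

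Actins and profilins, which build and steer the filaments along which tip-growing and elongating cells deliver wall material, had 6 of 15 members lower, 0 higher and 3 DTGs. Actin GRMZM2G006765_T02 fell, with 205 reads in SR-salt and 707 in SR, at -1.81 (-2.05 to -1.59), and actin GRMZM2G082484_T01 with 226 in SR-salt and 515 in SR, at -1.22 (-1.45 to -0.99). Profilin GRMZM2G140455_T01 fell too, with 104 reads in SR-salt and 220 in SR. The most abundant actin, GRMZM2G053299_T01, was at -0.28 (-0.43 to -0.14), with 714 reads in SR-salt and 852 in SR. Kinesins had 15.5% of 71 members higher and 8.45% lower, against 8.86% and 8.54% over all transcripts. Their median length was 2328 bases. Among transcripts longer than 2000 and up to 3000 bases, 13.999% were higher and 7.549% lower, close to the kinesin shares. The proteasome had 10.1% of 109 members higher and 4.59% lower, against the same 8.86% and 8.54%. The 1 proteasome DTG, GRMZM2G022915_T01, fell, with 53 reads in SR-salt and 144 in SR.

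Families that move ions and water had members in both directions, some of them at shares near those over all transcripts. Of all transcripts with 20 or more reads, 8.86% were higher and 8.54% lower beyond counting error, and 0.184% rose and 0.701% fell. The KUP potassium carriers had 1 member that rose, GRMZM2G438960_T01 with 256 reads in SR-salt and 118 in SR, and 1 that fell, GRMZM2G395267_T01 with 123 in SR-salt and 273 in SR, around a median of 0.04 over 24 members. Of these 24, 2 (8.33%) were higher and 3 (12.5%) lower beyond counting error, near the shares over all transcripts. Aquaporins, the water channels, had 7 higher and 7 lower of 25 (28% each). The most abundant one, GRMZM2G081843_T01, had 7014 reads in SR-salt and 5718 in SR, at 0.27 (0.22 to 0.32). The plasma membrane proton pump, which energises sodium export, had 2 of 11 members higher and 1 lower, and its leading transcript GRMZM2G104325_T01 had 2705 reads in SR-salt and 1961 in SR, at 0.44 (0.35 to 0.52). The vacuolar proton pumps had 5 higher and 5 lower of 45 (11.1% each), near the shares over all transcripts. Of 25 copper carriers, 3 fell, and their most abundant fallen member was the copper transporter GRMZM2G003179_T01, with 67 reads in SR-salt and 148 in SR. 

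The scan of the annotation columns placed few large groups far from 0. Over 256 KEGG entries, the 8 lowest medians were those of SWEET, pathogenesis-related protein 1, the ABA receptors, CML, the peroxidases and histone H3 above, and of 2 further entries. The RAV-like factors, B3-domain transcription factors, had the lowest median, -1.21 over 9 members, with 5 lower and 1 higher and 0 DTGs. GRMZM2G169654_T01 had 36 reads in SR-salt and 82 in SR, while the entry summed to 1233 in SR-salt and 1194 in SR. The SAUR auxin-response entry was at -0.62 over 11 members, with 2 lower and 1 higher. At the other end, the multidrug-resistance type (subfamily C) ABC transporters, which load conjugates into the vacuole, had a median of 0.41 over 12 members, with 7 higher, 0 lower and 0 DTGs. Their leading transcript, GRMZM2G084181_T01, had 7420 reads in SR-salt and 5399 in SR, at 0.43 (0.38 to 0.48), and the entry summed to 12107 in SR-salt and 8815 in SR. The entries of ERK-type kinases (0.43 over 8 members) and of the RFWD2 ubiquitin ligase (0.41 over 11) had 2 members each higher beyond counting error.

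Over the 286 GO Process terms with 15 or more measured transcripts, medians ran from -0.33 to 0.29. The lowest was nucleosome organization, with 30 of 64 transcripts lower and 0 higher, a term that overlaps the histone list. It was followed by reproduction (9 of 25 lower, 2 higher, median -0.31), trehalose metabolic process (-0.30) and transition metal ion transport (10 of 42 lower, 4 higher, -0.24). The reproduction term had 2 DTGs, of which GRMZM2G342246_T01, without a KEGG entry, fell to 719 reads in SR-salt, against 2014 in SR. High medians belonged, after abscisic acid metabolic process, to tRNA metabolic process (0.27) and cellular metal ion homeostasis (0.25, with 7 of 20 higher and 1 lower). In the tRNA term only 1 of 16 was higher beyond counting error, a share below the 8.86% over all transcripts. The term with the most DTGs was response to stress, with 15 fallen and 3 risen, while 17.5% of its measured transcripts were lower and 10.1% higher beyond counting error, against 8.54% and 8.86% over all transcripts, and 11 of the 12 fallen peroxidases carry it. Over all transcripts with 20 or more reads, 0.184% rose and 0.701% fell, the shares to set beside the DTG counts of these terms. Response to osmotic stress had 6 fallen and 0 risen DTGs among 322 transcripts with a median of 0.02. Response to abiotic stimulus held 6 risen DTGs and 1 fallen one among 97. The risen ones included the 2 NRT2 copies, whose IDs are both listed by 1 RefSeq gene, and the ammonium carrier and the invertase above. The others were an HSP20 chaperone (GRMZM2G413897_T01, 132 reads in SR-salt and 59 in SR) and an indoleacetate glucosyltransferase (GRMZM2G304712_T01, 207 in SR-salt and 57 in SR). Lipid localization held 4 fallen DTGs without a KEGG entry, led by GRMZM2G410338_T01 with 344 reads in SR-salt and 1217 in SR, and 1 risen, GRMZM2G320373_T01, with 40 in SR-salt and 7 in SR. Its median over 55 transcripts was 0.00.

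**Figure D4:**
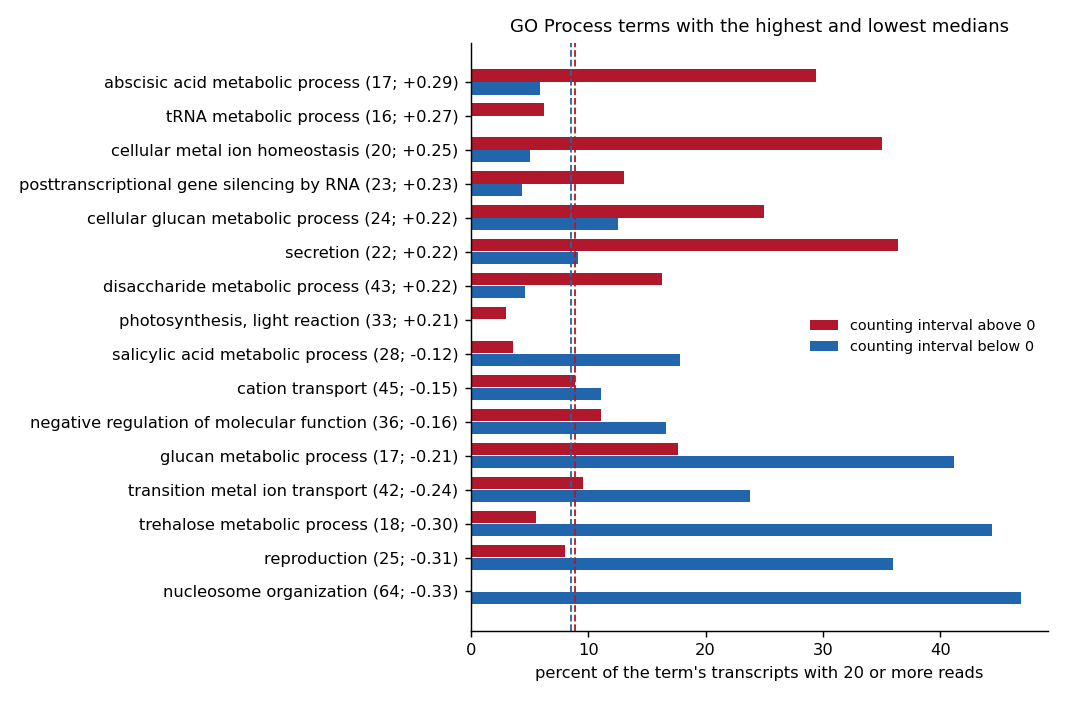
Percent of the transcripts of a GO Process term (x axis) whose counting interval lay above 0 (red) or below 0 (blue), for the 8 terms with the highest and the 8 with the lowest medians (y axis, with the number of transcripts and the median log2 ratio, SR-salt over SR). Dashed lines mark the shares over all transcripts, 8.86% above and 8.54% below. Nucleosome organization had 0 red and 30 blue transcripts of 64.

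Other large changes were in transcripts with and without a KEGG entry. The largest rise by ratio, in a transcript under the origin recognition complex subunit 3 entry, rested on 24 reads in SR-salt and 2 in SR (GRMZM2G136364_T02), with an interval of 1.55 to 6.68. Deeper risen transcripts with no KEGG entry were GRMZM2G147014_T01, with 333 reads in SR-salt and 60 in SR, and GRMZM2G112244_T01, with 104 in SR-salt and 16 in SR. The zeta-carotene desaturase entry GRMZM2G400929_T01, of the carotenoid pathway from which ABA is made, had 101 reads in SR-salt and 16 in SR, at 2.63 (1.86 to 3.49). Among falls, GRMZM2G019974_T01, an organic cation type transporter entry, had 17 reads in SR-salt and 105 in SR, at -2.65 (-3.49 to -1.91). The cathepsin L type protease GRMZM2G456217_T01 had 120 in SR-salt and 553 in SR, at -2.23 (-2.53 to -1.95). GRMZM2G032225_T01, whose primers are shown above, had 35 in SR-salt and 160 in SR. The RefSeq table matched 87 of the 159 DTGs by gene ID and gave a symbol other than a locus number to 3 of them. Around the ratio threshold, the risen DTG nearest to it was at 1.03 (GRMZM2G149576_T01) and the nearest transcript outside it at 0.995 (GRMZM2G035517_T01, 124 reads in SR-salt and 61 in SR).

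The salt ratio in SR was tested against that of CR or PR by an exact conditional test on the reads of the 4 libraries (called where the FDR was 0.001 or lower and the difference 1 log2 unit or more), which called 0.186% of 22084 transcripts for CR and 0.708% of 22321 for PR. Of the 33 risen SR DTGs, 1 differed from CR and 18 from PR, and of the 126 fallen ones, 6 differed from CR and 40 from PR. These DTGs were chosen on SR reads that also enter the test, so the shares are a description of the calls. The median log2 ratio of the risen SR DTGs was 1.19 in CR and -0.20 in PR, over 30 transcripts measured in each. That of the fallen ones was -0.71 in CR (123 transcripts) and -0.27 in PR (125). In CR, 26 of those risen DTGs were higher beyond counting error and 78 of the fallen ones lower, against 8.65% and 7.38% of all transcripts with 20 or more reads. The opposite held for 0 risen and 2 fallen DTGs in CR. In PR, 6 of 30 risen DTGs were higher and 13 lower, and 45 of 125 fallen ones were lower and 10 higher, against 8.42% higher and 7.89% lower over all. In CR, 10 of the risen DTGs and 36 of the fallen ones were DTGs of the same direction, against 0.135% and 0.234% of all transcripts. In PR, 1 and 15 were, against 0.0318% and 0.487%, while 3 risen SR DTGs were called lower and 2 fallen ones higher.

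By family, chitinases had a median of 0.26 in SR, 0.28 in CR and -0.50 in PR, and 4 of them differed between SR and PR. NRT2 carriers had medians of 2.34 in SR, 0.86 in CR and -3.08 in PR. GRMZM2G010251_T01 had 228 reads in CR-salt and 100 in CR, and 1 in PR-salt and 77 in PR. Peroxidases had medians of -0.46 in SR, -0.22 in CR and -0.10 in PR, with 6 members differing from CR and 11 from PR, the most of the 256 KEGG entries in both tests. GRMZM2G088765_T01 had 957 reads in CR-salt and 2485 in CR, and 1795 in PR-salt and 1811 in PR, and was a DTG in SR and CR and not in PR. Both actins that fell in SR were also fallen DTGs in CR and not in PR, and 3 members of the actin and profilin list differed between SR and PR. Core histones had medians of -0.39 in SR, -0.32 in CR and -0.30 in PR, and 0 of them differed by either test. MCM subunits had medians of 0.04 in SR, -0.07 in CR and -0.35 in PR, and 0 were called different. Of 11 measured, 0 were lower beyond counting error in SR, 0 in CR and 9 in PR. A call needs a difference of 1 log2 unit, which shifts as small as those of the histones and MCM subunits could hardly reach. The lack of calls therefore does not show that they behaved alike in the root types.

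**Figure D5:**
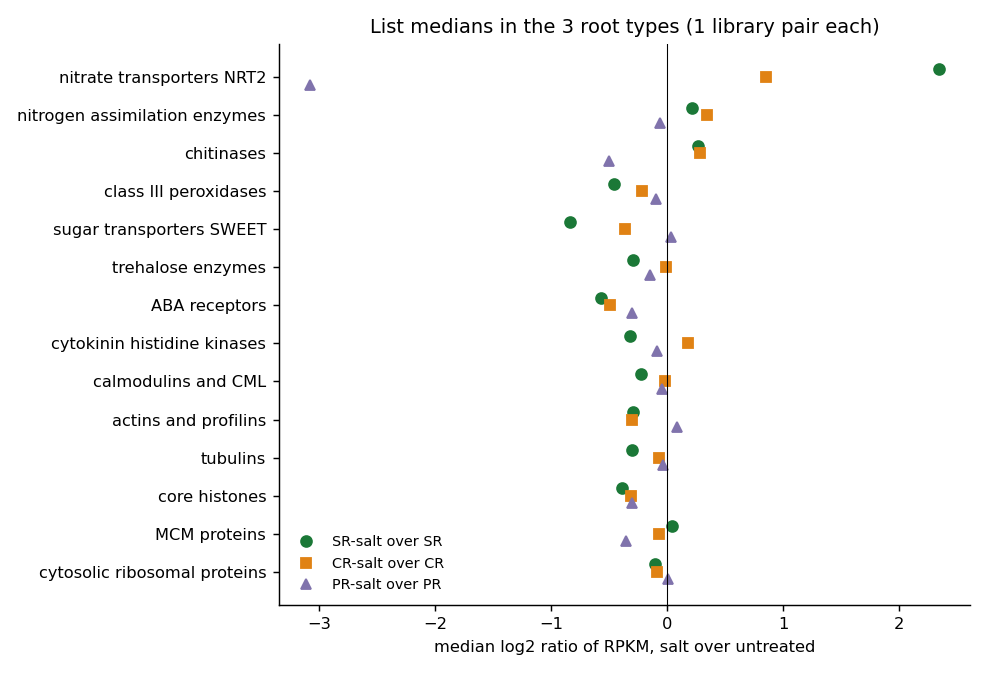
Median log2 ratio of RPKM, salt over untreated (x axis), of 14 annotation lists (y axis) in SR (circles), CR (squares) and PR (triangles), 1 pair of libraries each, over members with 20 or more reads in the SR pair and in the pair shown. NRT2 carriers and chitinases are above 0 in SR and CR and below it in PR, and core histones are below 0 in all 3.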

How the data were processed

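Tips of seminal, crown and primary roots were sequenced by the authors with and without NaCl (HiSeq 2000, cDNA from random primers, 1 library a condition). Reads were aligned by the authors with SOAP to B73 RefGen_V2 and annotated with BLAST. The deposited table gives for each transcript the authors' count of uniquely mapped reads, their RPKM, their percent of the transcript covered, and KEGG Orthology and GO columns. No column lacked a sample. Labels mention 3 biological replicates, but 1 library stands for each condition, so p-values compare libraries.

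DTGs were called on the deposited counts by the Audic-Claverie test with the Benjamini-Hochberg method applied to all transcripts that had a read in the pair (FDR at most 0.001, absolute log2 ratio of the deposited RPKM at least 1, an RPKM of 0 set to 0.01). The form of the tail and that 0.01 were inferred. Intervals are 95% Clopper-Pearson. Between root types an exact conditional test was used. The 54 lists were matched on the first KEGG entry. Summed reads cover all annotated transcripts of a list, and medians and counts those with 20 or more reads in the pair. The members, lists and tests were chosen with earlier results of these data known. Named transcripts were up to 4 DTGs a list by size of ratio, or the 2 with the most reads in a list without a DTG, and the 12 largest rises and falls. Others, such as members of the RAV-like, ABC transporter and aldehyde oxidase entries, were chosen after their values were seen, and not all that the rule gives are printed. Python 3.11.15 with scipy 1.17.1 was used, with edgeR 4.0.16 and DESeq2 1.42.0 for alternatives, and the tests were checked on simulated data. Depth ran from 51.6 to 55.1 uniquely mapped reads a transcript over all 48312 transcripts, by library. Whether strand was used in counting is not given in the sources used here, so reads of a gene and of an overlapping antisense gene may not be told apart. Current gene names came from RefSeq (assembly Zm-B73-REFERENCE-NAM-5.0).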

Additional observations from a re-analysis of the deposited data

Results flagged for a closer look

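Both results here differ between root types by the exact conditional test on the reads of 4 libraries, against both of the other root types. The nitrate transporter GRMZM2G010280_T01 had a salt ratio above that in CR by 1.70 and above that in PR by 5.50 log2 units, with 1 read added to each count. Its reads were 202 in SR-salt and 33 in SR, 142 in CR-salt and 81 in CR, and 9 in PR-salt and 73 in PR. Its values are uncertain, since 1 RefSeq gene lists both GRMZM2G010280 and GRMZM2G010251, and the adjacent RefSeq gene lists GRMZM2G010280 as well. The other copy, GRMZM2G010251_T01, was above CR by 1.10 log2 units and was not called different from CR by the same test. The peroxidase GRMZM2G138450_T01 had a salt ratio below that in CR, at a difference of -2.41, and below that in PR, at -3.38. Its reads were 34 in SR-salt and 295 in SR, 36 in CR-salt and 61 in CR, and 198 in PR-salt and 157 in PR. Each value rests on 1 library a condition, and root type and age cannot be told apart.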

How the results depend on the processing

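No paired analysis was possible because each condition has 1 library, and for the same reason no replicate could be left out. The counts of DTGs depended on the threshold and on the spread assumed between replicates, which these data cannot supply. Against 33 risen and 126 fallen DTGs, an FDR of 0.05 gave 95 and 239, and raising the ratio threshold to 1.5 log2 units gave 19 and 54. The edgeR exact test gave 15 and 44 with an assumed biological coefficient of variation (BCV) of 0.1, 15 and 43 with the dispersion of an additive fit over root types, and 0 and 3 with a BCV of 0.2, where Fisher's exact test gave 33 and 125. Other scalings, filters and an added read kept both counts within 1.5 times. Log2 ratios of summed reads moved beyond counting error with TMM for vacuolar pumps (-0.026), aquaporins (-0.067), peroxidases (-0.43), cellulose synthases (-0.052), glutathione S-transferases (0.066), the IRAK4 kinase entry (-0.17), HSP70 and HSP90 (0.035), kinesins (0.043), core histones (-0.43), ribosomal proteins (-0.14) and the proteasome (0.013), and with DESeq2 size factors for peroxidases (-0.42), ribosomal proteins (-0.13) and the proteasome (0.023). TMM moved every log2 ratio by -0.04. Counting any KEGG entry moved benzoxazinoid enzymes to 0.10, ABA phosphatases and kinases to 0.10, ethylene synthesis to -0.065, and ABA synthesis and breakdown to 0.66 against -0.64 with the first entry, a reversal in which the aldehyde oxidases entered the list. With at least 50 reads the sucrose synthase median was 0.80. An alternative chosen after seeing the data, subtracting the median of transcripts of like length, kept all 54 list medians close to their values. Also chosen after seeing the data, leaving out GRMZM2G431039_T01 put the sum of the cytokinin histidine kinase entry at -0.10, and leaving out GRMZM2G300965_T01 put that of the respiratory burst oxidases at 0.060, a reversal with an interval that includes 0.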
